A study of Mus musculus with 17 samples.

Results

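The 10 genes described here, P3h1, Crtap, P4ha1, P4ha2, P4ha3, P4hb, Plod1, Plod2, Plod3 and Serpinh1, encode enzymes and chaperones that work on procollagen in the endoplasmic reticulum (ER). They were taken by gene symbol from the 55421 genes of the deposited count matrix, and each symbol matched 1 row. Their levels were measured by strand-specific total RNA-Seq in cultures labelled as lung fibroblasts and passaged once, with 1 library from each of 17 mice. All mice carried floxed Ephb4 alleles and a tamoxifen-inducible Cre under Col1a2 regulatory sequence (Ephb4 f/f; Col1a2-CreERT2), on a C57BL/6J background. At 4 weeks of age they received 4-hydroxytamoxifen, 1 mg a day for 5 days (Ephb4 CKO), or corn oil (Ephb4 control), and at 6 weeks they received bleomycin, an antitumour drug that causes lung injury, instilled into the trachea at 1.2 U/kg, or PBS by the same route. Lungs were taken on day 14. The PBS arms held 4 Ephb4 control and 5 Ephb4 CKO mice, and the bleomycin arms held 4 of each genotype. Deletion in this model reaches cells in which Col1a2 regulatory sequence is active, and every group, the control mice included, carries the Cre transgene and the floxed alleles. Genotype below therefore means induced (Ephb4 CKO) or not induced (Ephb4 control). No group received 4-hydroxytamoxifen without deletion, so the drug and the deletion cannot be told apart. Mice are numbered within a group by their order in the series, and these numbers pair nothing.

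Fibrillar collagen chains are modified while they are made. Prolyl 4-hydroxylase, an assembly of alpha subunits (P4ha1, P4ha2 or P4ha3) with the protein disulfide isomerase P4hb, hydroxylates prolines and so stabilises the triple helix; the lysyl hydroxylases Plod1, Plod2 and Plod3 prepare lysines for glycosylation and for crosslinks, with Plod2 acting on the telopeptides; and P3h1 with its partner Crtap hydroxylates single prolines at the 3 position. Serpinh1 (HSP47) is the collagen-specific chaperone that binds the folded triple helix on its way out of the ER. P4hb also serves in general disulfide exchange, and Plod3 also transfers sugars, so these 2 proteins have substrates other than fibrillar collagen.

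The genes lie apart in GRCm38, on chromosomes 4 (P3h1 and Plod1), 5 (Plod3), 7 (P4ha3 and Serpinh1), 9 (Crtap and Plod2), 10 (P4ha1) and 11 (P4ha2 and P4hb). Exons of Plod3 share 529 bases with Znhit1 and exons of Plod2 share 346 bases with Gm38391, in both cases a gene of the opposite strand, and the counting used strand. RefSeq promoter windows, from 250 bases before to 50 bases after a start site in GRCm38.p6, were matched to 9 of the 10 genes (10 windows, since P3h1 has 2); Plod2 had none among them. The 150 bases before the start site are shown for 4 genes, because the results turn on them: Serpinh1 (chr7:99353240-99353389, reverse strand) and P3h1 (chr4:119232765-119232914, forward strand), whose levels differed widely between libraries, and P4hb (chr11:120573254-120573403, reverse strand) and Plod3 (chr5:136986869-136987018, forward strand), whose levels did not. Each reads 5′ to 3′ along the gene, and capitals mark matches, on either strand, to GGGCGG (the GC box of Sp1 factors), CCAAT (the CCAAT box) or ACGTG (the core of the hypoxia response element).
Serpinh1: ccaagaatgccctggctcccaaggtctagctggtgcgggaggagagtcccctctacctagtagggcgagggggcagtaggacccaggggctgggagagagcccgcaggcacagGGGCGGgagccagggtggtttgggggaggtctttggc
P3h1: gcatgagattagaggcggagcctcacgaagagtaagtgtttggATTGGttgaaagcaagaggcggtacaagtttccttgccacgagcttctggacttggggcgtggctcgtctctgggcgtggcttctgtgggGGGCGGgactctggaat
P4hb: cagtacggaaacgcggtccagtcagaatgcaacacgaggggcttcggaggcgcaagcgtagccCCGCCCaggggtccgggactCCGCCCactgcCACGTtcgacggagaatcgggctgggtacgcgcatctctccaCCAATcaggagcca
Plod3: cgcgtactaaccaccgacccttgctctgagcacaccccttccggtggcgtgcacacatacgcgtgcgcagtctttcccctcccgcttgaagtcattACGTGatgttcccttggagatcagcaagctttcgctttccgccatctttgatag
Over the full windows, GGGCGG was found in 9 of the 10 member windows and in 35.7% of all 32851 windows of the same length. ACGTG was found in 6 of 10 against 19.6%, and CCAAT in 4 of 10 against 37.4%. GAANNTTC, a core of the heat shock element, was in 1 of 10 windows, that of Plod1, against 7.86%. The ER stress element, CCAAT followed after 9 bases by CCACG, was in 0 of 10 against 0.119%; its first part is also a CCAAT box, and the reverse complement of its second part overlaps ACGTG. Plod3 was the member whose window lacked GGGCGG. These matches are letters in a window and were not tested as binding sites.

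Total counts ranged from 66540022 to 120554468 per library, and 7 abundant noncoding RNA genes held between 16.9% and 35.1% of them. Levels are given as CPM, counts scaled to a library of 1e+06, after TMM scaling of library sizes. A gene was tested where at least 2 libraries had over 10 CPM before that scaling, which kept 10481 genes and all 10 members; P4ha3 passed through 2 Ephb4 control bleomycin libraries alone, so it had to be high in that group. In 3 bleomycin libraries, mouse 2 of Ephb4 control and mice 1 and 2 of Ephb4 CKO, sex-linked genes went against the recorded sex, and the main counts are also given without them. The sequencing run of each library is not given in the sources used here. The targeted gene, Ephb4, was at 23.2, 3.91, 32.5 and 2.45 CPM in the Ephb4 control PBS libraries and between 4.02 and 21.96 CPM in the Ephb4 CKO PBS libraries. In the bleomycin libraries it was at 66.5, 13.7, 36.5 and 40.7 CPM in Ephb4 control mice and at 14.2, 9.53, 9.77 and 5.13 CPM in Ephb4 CKO mice, so Ephb4 control bleomycin mouse 2 lay within the Ephb4 CKO range (log2 fold change -2.03, SE 0.77, adjusted p = 0.230, edgeR quasi-likelihood test with Benjamini-Hochberg adjustment).

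The 10 genes differed widely in how much they varied over the 17 libraries. The SD of log2 CPM was 2.66 for P4ha3, 2.49 for Plod2, 2.38 for Serpinh1, 2.02 for P4ha2 and 1.14 for P3h1. It was 0.77 for P4ha1, 0.58 for Crtap, 0.49 for P4hb, 0.42 for Plod1 and 0.35 for Plod3. Serpinh1, for example, ran from 7.88 to 1718 CPM, 218-fold, whereas Plod3 ran from 110.1 to 269 CPM, 2.44-fold. The lowest library was Ephb4 control PBS mouse 4 for P4ha2, P4ha3, Plod2 and Serpinh1, and the highest was an Ephb4 control bleomycin library for every member except Plod3.

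**Figure D1:**
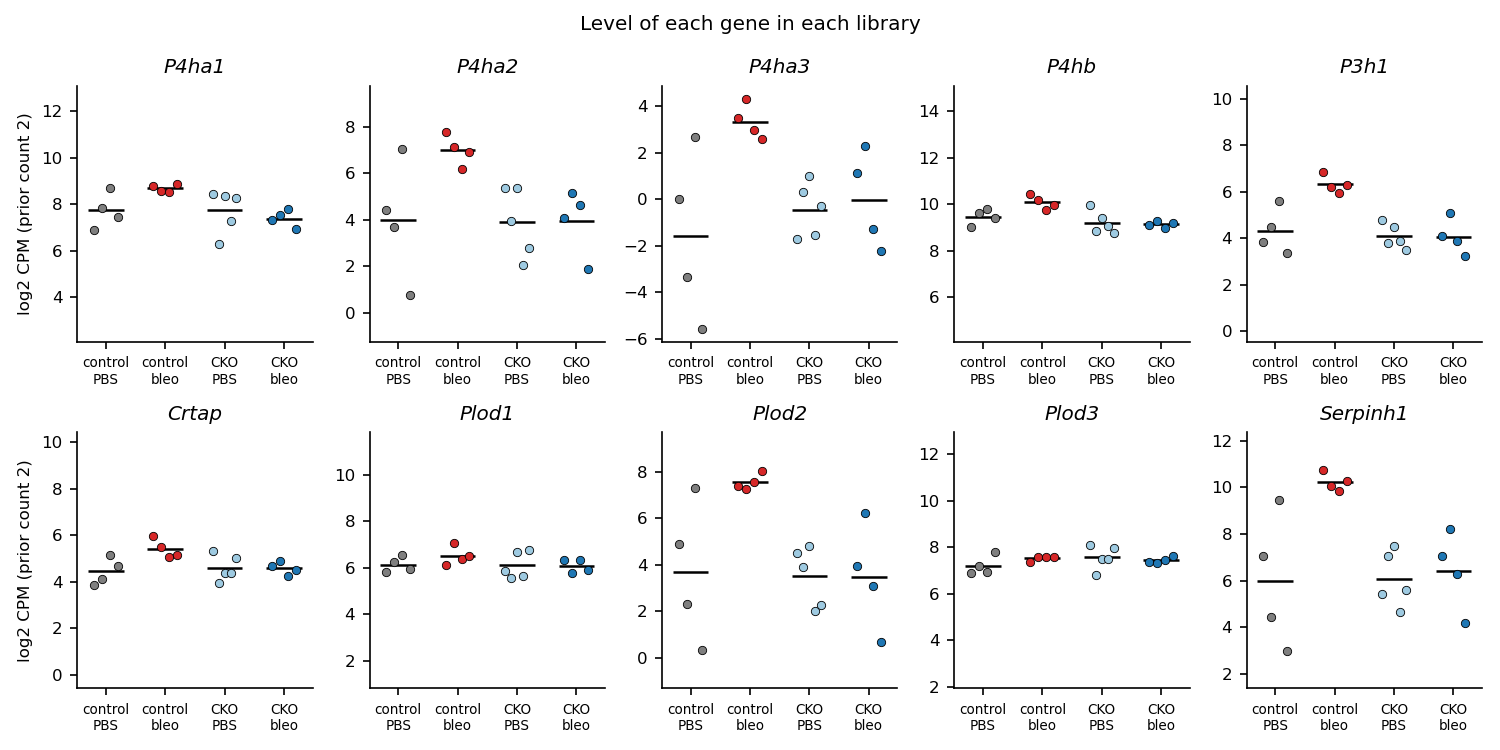
Level of each of the 10 genes (log2 CPM with a prior count of 2; every panel spans the same number of log2 units) in each library of the 4 groups; points are mice and bars are group means. The Ephb4 control bleomycin points cluster above the others for Serpinh1 and P3h1 and lie among them for Plod3.

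Per kilobase of exon, the order of levels in Ephb4 control mice given bleomycin began with Serpinh1 at 506 ± 141 CPM per kb (SD, n = 4), P4hb at 384 ± 76.2 and P4ha1 at 100.2 ± 11.6. Plod3 (40.8 ± 3.005 CPM per kb), Plod2 (35.9 ± 9.29), Crtap (25.03 ± 7.47), P4ha2 (21.99 ± 9.57), P3h1 (21.5 ± 6.01) and Plod1 (13.9 ± 4.11) followed, and each of these neighbouring pairs differed by less than the SD of their difference between mice. P4ha3 was last at 3.56 ± 1.94 CPM per kb. Per kilobase of the longest transcript instead, P4ha2 lay above Crtap in each of these mice, so this order depends in part on the length used. In the other 3 groups P4hb came first, at 253 ± 56.8 CPM per kb in Ephb4 control PBS mice (SD, n = 4), 218 ± 80.5 in Ephb4 CKO PBS mice (SD, n = 5) and 199 ± 16.9 in Ephb4 CKO bleomycin mice (SD, n = 4). Serpinh1 had 89.4 ± 136, 35.2 ± 27.6 and 53.5 ± 48.3 CPM per kb in the same groups.

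The first comparison asked how cultures from bleomycin-exposed and PBS-exposed Ephb4 control mice differed. These cultures also held macrophage marker RNA, as given below. All 10 genes were higher after bleomycin, by a median log2 fold change of 1.32 (0.28 to 2.60), where the median over all 10481 genes was -0.01. The filter required P4ha3 to be high in the Ephb4 control bleomycin group, so its direction here carries no weight. P4ha3 also enters the members' medians, here and below, in every fit that tested it. Among the other members the middle log2 fold change was 0.93, that of Crtap. By edgeR's quasi-likelihood test 0 members, and 0% of all genes, passed the adjusted threshold of 0.05, and 4 members (P4hb, P3h1, Crtap and Serpinh1) were higher at an unadjusted p under 0.05, against 7.99% of all genes. DESeq2 called 1 member higher, P3h1, against 0.935%, and in 2 members, P3h1 and Serpinh1, the 4 bleomycin libraries all lay above the 4 PBS libraries, against 6.76% of all genes.

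The second comparison asked how Ephb4 CKO and Ephb4 control cultures differed after bleomycin. It shares the 4 Ephb4 control bleomycin libraries with the first, so opposite signs in the 2 are not separate evidence. All 10 genes were lower in Ephb4 CKO, by a median log2 fold change of -1.70 (-3.24 to -0.09), where all genes had a median of -0.02. Again 0 members and 0% of all genes had an adjusted p under 0.05 in edgeR, the smallest member value being 0.151. At an unadjusted p under 0.05 there were 7 members lower, all but P4ha3, Plod1 and Plod3, against 10.7% of all genes. DESeq2 called 3 members lower (P3h1, P4hb and Serpinh1), against 2.42%. In 8 members, all but Plod1 and Plod3, no Ephb4 CKO library reached the lowest Ephb4 control library, against 13.8% of all genes. P4ha3 is among these 8 and among the 10 that were lower. It passed the filter only through Ephb4 control bleomycin libraries, so its place in both counts and in the median carries no weight. Among the other members the middle log2 fold change was -1.27, that of P4ha1. P4hb and P3h1 are among the genes that the study itself picked as lower from these libraries, so their direction is not independent evidence.

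The 3 libraries with discordant sex genes touch both comparisons. Without them, 2 members (P3h1 and Crtap) were higher after bleomycin in Ephb4 control mice at an unadjusted p under 0.05 in edgeR, with a median of 0.92 over 9 members, since P4ha3 then fell below the filter, against 6.30% of all genes. In the same fit 5 members (P4hb, P3h1, Crtap, Plod2 and Serpinh1) were lower in Ephb4 CKO after bleomycin, with a median of -1.31, against 8.73% of all genes. These medians are to be set against the same 9 members in the fit of all 17 libraries. There the middle values were 0.93 (Crtap) in the first comparison and -1.27 (P4ha1) in the second. The count of 4 members in the first comparison became 7 with limma voom, against 12.6% of all genes in that fit, which also moved Serpinh1 to 4.24 and Plod2 to 3.88. It became 8 without Ephb4 control PBS mouse 3. It became 2 without Ephb4 control PBS mouse 1 or 4, Ephb4 control bleomycin mouse 1, 2 or 4, or Ephb4 CKO bleomycin mouse 3, of which the last enters only the shared spread. The count of 7 in the second became 4 without Ephb4 CKO bleomycin mouse 4. The share of all genes was not computed for fits without 1 mouse, so these counts are not read as results about the members.

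**Figure D2:**
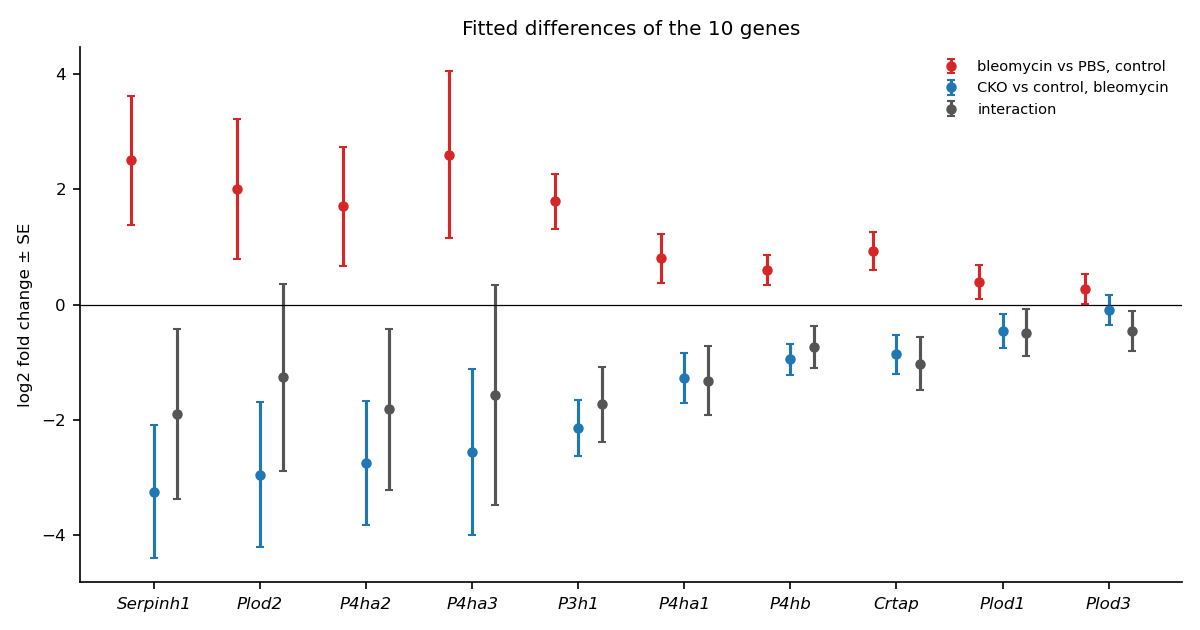
Fitted log2 fold changes of the 10 genes (y axis, points; bars are ± SE from edgeR) for bleomycin against PBS within Ephb4 controls, for Ephb4 CKO against control after bleomycin, and for the interaction. The genes run from Serpinh1 at -3.24 to Plod3 at -0.09 in the second comparison, and bars are widest for P4ha3 and Plod2.

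Serpinh1, the collagen chaperone, was at 134, 21.9, 709.9 and 7.88 CPM in Ephb4 control PBS mice and at 1718, 1080.3, 918 and 1226 CPM in Ephb4 control bleomycin mice. The PBS mice thus spanned nearly the whole range of the gene, mouse 3 being close to the bleomycin mice, and the groups did not overlap. The log2 fold change was 2.501 (SE 1.12, adjusted p = 0.352, edgeR), and 4.48 without Ephb4 control PBS mouse 3. In Ephb4 CKO mice Serpinh1 was between 24.98 and 181 CPM after PBS and at 134, 293, 78.5 and 17.9 CPM after bleomycin, all below every Ephb4 control bleomycin mouse. Ephb4 CKO versus control after bleomycin gave -3.24 (SE 1.15, adjusted p = 0.223, edgeR; 0.0443 in DESeq2). The DESeq2 call was lost when the matrix columns, which form 2 sorted runs, were given a covariate for the run (adjusted p = 0.0529), and the edgeR value was -4.74 without the 3 libraries with discordant sex genes and -4.01 without Ephb4 CKO bleomycin mouse 2.

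P3h1, the 3-hydroxylase, was at 14.5, 22.2, 48.8 and 10.2 CPM in Ephb4 control PBS mice and at 116, 74.0, 62.7 and 78.7 CPM in Ephb4 control bleomycin mice. No library of the first group reached the second (log2 fold change 1.79, SE 0.48, adjusted p = 0.207 in edgeR and 0.0383 in DESeq2). After bleomycin in Ephb4 CKO mice it was at 17.1, 33.9, 14.6 and 9.52 CPM, again without overlap, with a log2 fold change against Ephb4 control of -2.14 (SE 0.49, adjusted p = 0.151 in edgeR and 0.00589 in DESeq2). It was the member with the smallest p in both comparisons. Its partner Crtap was at 14.6, 17.2, 35.6 and 25.7 CPM in Ephb4 control PBS mice, 62.6, 45.5, 33.7 and 35.5 CPM in Ephb4 control bleomycin mice, and 25.8, 30.1, 18.7 and 22.9 CPM in Ephb4 CKO bleomycin mice. Crtap overlapped between the first 2 groups and not between the last 2, and its log2 fold changes were 0.93 (SE 0.33, adjusted p = 0.307) and -0.86 (SE 0.33, adjusted p = 0.230, both edgeR).

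P4hb, the shared beta subunit of prolyl 4-hydroxylase, had a median of 678 CPM over all libraries. It was at 519, 802, 895 and 682 CPM in Ephb4 control PBS mice and at 1376, 1155, 872 and 993 CPM in Ephb4 control bleomycin mice, where mouse 3 lay within the PBS range. In Ephb4 CKO bleomycin mice it was at 557, 624, 509.6 and 587 CPM, a narrow range below every Ephb4 control bleomycin mouse. The log2 fold changes were 0.60 (SE 0.27, adjusted p = 0.345) after bleomycin and -0.95 (SE 0.27, adjusted p = 0.171) in Ephb4 CKO in edgeR, and DESeq2 gave the latter an adjusted p of 0.0225.

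Of the alpha subunits, P4ha1, the widely expressed form, was at 119.6, 231, 418 and 177 CPM in Ephb4 control PBS mice, 436, 378, 367 and 468 CPM in Ephb4 control bleomycin mice and 158, 186, 220.4 and 121 CPM in Ephb4 CKO bleomycin mice. The last group lay wholly below the second (log2 fold change -1.27, SE 0.43, adjusted p = 0.215, edgeR), and the first overlapped it (0.80, SE 0.43, adjusted p = 0.412, edgeR). P4ha2 was at 21.4, 12.8, 132 and 1.67 CPM in Ephb4 control PBS mice, 217, 139, 73.3 and 119.8 CPM in Ephb4 control bleomycin mice and 17.1, 36.1, 24.7 and 3.66 CPM in Ephb4 CKO bleomycin mice. Its difference in Ephb4 CKO was larger in size, and less precise, than that of P4ha1 (log2 fold change -2.75, SE 1.07, adjusted p = 0.232, edgeR). P4ha3, the alpha subunit with the lowest level, was between 5.94 and 19.7 CPM in Ephb4 control bleomycin mice, between 0.196 and 4.82 CPM in Ephb4 CKO bleomycin mice and between 0 and 6.30 CPM in Ephb4 control PBS mice. Its log2 fold change in Ephb4 CKO was -2.55 (SE 1.44, adjusted p = 0.316, edgeR).

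Of the lysyl hydroxylases, Plod2, the telopeptide enzyme, was at 29.9, 5.01, 156 and 1.24 CPM in Ephb4 control PBS mice and at 167, 151, 191 and 265 CPM in Ephb4 control bleomycin mice. Only Ephb4 control PBS mouse 3 came within the bleomycin range. In Ephb4 CKO bleomycin mice it was at 15.5, 74.8, 8.43 and 1.56 CPM, below every Ephb4 control bleomycin mouse, with a log2 fold change of -2.95 (SE 1.26, adjusted p = 0.243, edgeR). The value was -5.38 without the 3 libraries with discordant sex genes, which include Ephb4 CKO bleomycin mouse 2, the highest of its group. Plod3, the lysyl hydroxylase that also has glycosyltransferase activity, was at 119.8, 145, 121 and 223 CPM in Ephb4 control PBS mice, 164, 189, 191 and 193 CPM in Ephb4 control bleomycin mice and 164, 158, 173 and 198 CPM in Ephb4 CKO bleomycin mice. The last 2 groups covered nearly the same range, and the log2 fold change was -0.09 (SE 0.26, adjusted p = 0.852, edgeR), with upper quartile normalization 0.12. Plod1 was between 55.6 and 93.6, 69.6 and 134, and 53.8 and 80.6 CPM in these groups, with a log2 fold change in Ephb4 CKO of -0.45 (SE 0.30, adjusted p = 0.374, edgeR).

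The third comparison was of Ephb4 CKO with control without bleomycin. Of the 10 members, 4 were higher and 6 lower in Ephb4 CKO after PBS, with a median log2 fold change of -0.32 (-1.69 for Plod2 to 0.37 for Plod3). None had an adjusted p under 0.05 in edgeR, as for 0% of all genes, 0 had an unadjusted p under 0.05, against 1.83% of all genes, and DESeq2 called 0 members and 1 gene in all. A count of 0 of 10 is near these shares and says nothing particular about the members. Serpinh1, Plod2, P4ha2, P4ha3 and P3h1, each lower here, were higher in Ephb4 CKO without Ephb4 control PBS mouse 3. In Ephb4 CKO mice, bleomycin versus PBS gave 4 members higher and 6 lower with a median of -0.09, with 0 at the adjusted threshold in edgeR (0% of all genes), 0 at the unadjusted one (0.935%) and 0 in DESeq2 (1 gene in all), again near the shares of all genes. Serpinh1 differed by 0.61 (SE 1.00) and P4hb by -0.13 (SE 0.25) in that comparison.

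The interaction, the test of whether the bleomycin difference was unlike in the 2 genotypes, was negative for all 10 members, with a median of -1.29. The sign of P4ha3 again carries no weight, because the filter required it to be high in Ephb4 control bleomycin mice. Among the other members the middle value was -1.26, that of Plod2. No member and 0% of all genes had an adjusted p under 0.05 in edgeR, and DESeq2 called none. At an unadjusted p under 0.05 there were 3 members, P3h1 (-1.73, SE 0.65), P4ha1 (-1.32, SE 0.59) and Crtap (-1.02, SE 0.46), against 1.98% of all genes on the lower side. This count was 6 without Ephb4 control PBS mouse 3. It was 1, P3h1, without the 3 libraries with discordant sex genes, against 3.21% of all genes on the lower side in that fit. It was also 1 without Ephb4 control PBS mouse 1, 2 or 4, Ephb4 control bleomycin mouse 1 or 2, Ephb4 CKO PBS mouse 1, or Ephb4 CKO bleomycin mouse 1 or 4. Shares of all genes were not computed for the fits without 1 mouse. A difference between genotypes in the response to bleomycin was thus not shown for any member after adjustment.

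The make-up of the enzyme families was compared per kilobase of exon, as 4 ratios in 4 comparisons, each by a 2-sided exact permutation test with Benjamini-Hochberg adjustment over the 16 tests. P4ha1 made up most of the summed alpha subunit level in every library. Its share was 80.1% ± 6.17 (SD, n = 4) in Ephb4 control bleomycin mice, 91.4% ± 8.10 (SD, n = 4) in Ephb4 control PBS mice, 93.5% ± 4.70 (SD, n = 5) in Ephb4 CKO PBS mice and 92.1% ± 4.85 (SD, n = 4) in Ephb4 CKO bleomycin mice. Its difference between genotypes after bleomycin had p = 0.0571 in the exact permutation test (adjusted 0.229). The share depends on the length used, since P4ha2 has 6239 bases as the union of exons and 3060 in its longest transcript. Per kilobase of the longest transcript, Ephb4 control bleomycin mice had 70.8, 45.5, 23.9 and 39.1 CPM for P4ha2. P4ha1 was at 107.8, 93.6, 90.8 and 115.8 there, a smaller share than by the union of exons. Plod2 made up 39.4% ± 6.32 of the Plod level in Ephb4 control bleomycin mice (31.3% to 46.7%) and 8.40% ± 10.9 in Ephb4 CKO bleomycin mice (0.549% to 24.4%), without overlap, with p = 0.0286 in the exact permutation test, the smallest that 4 against 4 allow (adjusted 0.152). In Ephb4 control PBS mice it ranged from 0.390% to 41.6%, and in Ephb4 CKO PBS mice from 1.25% to 8.75%.

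**Figure D3:**
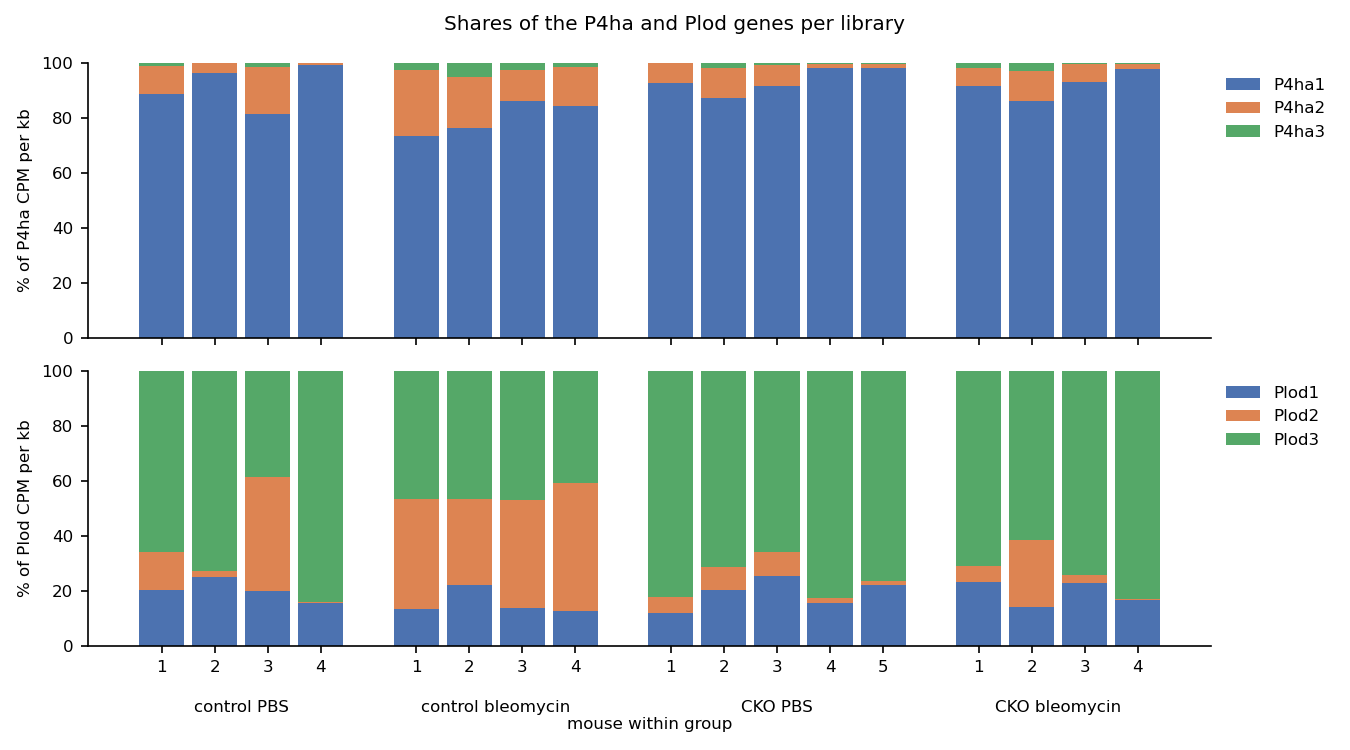
Percentage of the summed CPM per kb of the 3 P4ha genes (top) and the 3 Plod genes (bottom) held by each gene, 1 bar per mouse, by group. Plod2 holds 31.3% to 46.7% in the 4 Ephb4 control bleomycin mice and 41.6% in Ephb4 control PBS mouse 3, and P4ha1 holds most of the P4ha level in every mouse.

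The level of P3h1 was also set against that of Crtap. The log2 ratio was -0.21 ± 0.18 in Ephb4 control bleomycin mice, -1.25 ± 0.83 in Ephb4 control PBS mice, -1.63 ± 0.59 in Ephb4 CKO bleomycin mice (SD, n = 4 each) and -1.64 ± 0.64 in Ephb4 CKO PBS mice (SD, n = 5). The first group lay wholly above the second and the third, with p = 0.0286 for each in the exact permutation test (adjusted 0.152). The log2 ratio of the summed alpha subunits to P4hb was -1.60 ± 0.18 in Ephb4 control and -2.17 ± 0.47 in Ephb4 CKO bleomycin mice (SD, n = 4 each), with p = 0.0857 in the exact permutation test (adjusted 0.261). None of the 16 tests had an adjusted p under 0.05, and 4 mice against 4 cannot give a raw p below 0.0286.

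Other genes of procollagen modification and folding were read beside the members as a partner list of 12 genes, of which 10 were tested. After bleomycin 7 of the 10 had a lower level in Ephb4 CKO, and the median was -1.49. Of these, 6 had an unadjusted p under 0.05 in edgeR, against 10.7% of all genes. These 6 were Fkbp10, a prolyl isomerase that works with Serpinh1 (log2 fold change -2.98, SE 1.24), the ER membrane transcription factor gene Creb3l1 (-2.52, SE 0.84), the P3h1 relatives P3h4 (-2.41, SE 1.08) and P3h3 (-2.28, SE 0.74), the isomerase gene Fkbp14 (-2.24, SE 0.97) and Mia3, a receptor for procollagen export (-0.74, SE 0.23). Tmem38b, an ER cation channel gene, went the other way (1.11, SE 0.36, unadjusted p = 0.00704, edgeR), where 8.47% of all genes were higher at an unadjusted p under 0.05. Colgalt1, which adds galactose to hydroxylysine, was at 0.36 (SE 0.25). DESeq2 called P3h3 and Creb3l1 lower, against 2.42% of all genes, and Tmem38b higher, against 145 of 10481 genes. EdgeR gave an adjusted p under 0.05 to none, as for 0% of all genes. In the first comparison the list had a median of 0.84. At an unadjusted p under 0.05 in edgeR 3 were higher (P3h3, Fkbp10 and Mia3) and 1 lower (Tmem38b), against 7.99% and 5.76% of all genes.

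A comparison list held 11 ER oxidoreductases, chaperones and other prolyl hydroxylases that do not act mainly on procollagen, of which 10 were tested. All 10 were lower in Ephb4 CKO after bleomycin, with a median of -0.48 (-0.76 to -0.15). Of these, 4 had an unadjusted p under 0.05 in edgeR, against 10.7% of all genes. They were Hsp90b1 (-0.76, SE 0.30), Pdia6 (-0.74, SE 0.28), Pdia4 (-0.62, SE 0.24) and Pdia3 (-0.49, SE 0.18). DESeq2 called 0 of them, against 2.42% of all genes. In Ephb4 control mice after bleomycin their median was 0.11, with Egln2 alone at an unadjusted p under 0.05 (0.43, SE 0.19), against 7.99% of all genes higher. With upper quartile normalization the median of all genes moved to 0.18 after bleomycin between genotypes and to -0.21 for bleomycin in Ephb4 control mice. Between genotypes that is larger in size than the difference of Plod3 (-0.09) and smaller than those of Plod1 (-0.45) and of this list's median (-0.48). For bleomycin in Ephb4 control mice it is larger in size than this list's median (0.11) and smaller than the differences of Plod3 (0.28) and Plod1 (0.39). The substrate chains Col1a1, Col1a2 and Col3a1 were lower in Ephb4 CKO by -4.74 (SE 1.997), -4.26 (SE 2.18) and -5.43 (SE 2.65), of which Col1a1 had an unadjusted p under 0.05 in edgeR and an adjusted p of 0.0468 in DESeq2.

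**Figure D4:**
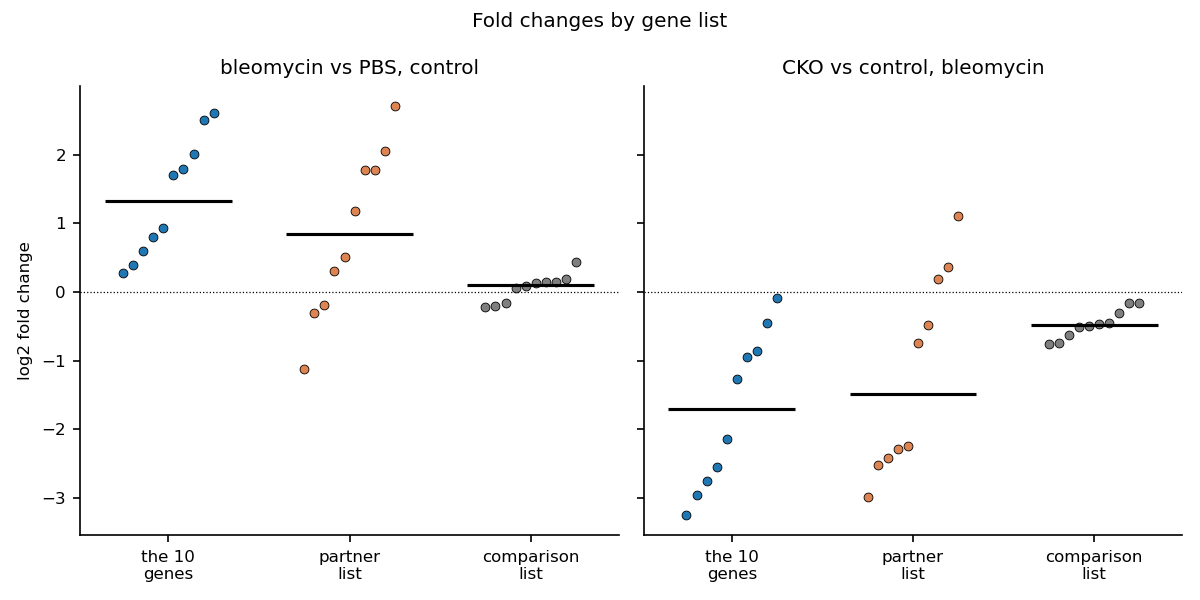
Log2 fold change (y axis) of each gene tested in the 10 members, the partner list and the comparison list, for bleomycin against PBS within Ephb4 controls (left) and for Ephb4 CKO against control after bleomycin (right); bars are medians. On the right the medians are -1.70, -1.49 and -0.48. The first of these includes P4ha3, which passed the filter only through Ephb4 control bleomycin libraries.

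Levels of marker genes differed in direction between the groups. In edgeR 0 of them had an adjusted p under 0.05, as for 0% of all genes. A fibroblast list of 14 genes (12 tested) includes the 3 substrate chains. It was higher after bleomycin in Ephb4 control mice in 12 of 12 (median 2.22) and lower in Ephb4 CKO after bleomycin in 12 of 12 (median -2.58). At an unadjusted p under 0.05 in edgeR there were 1 and 2 of these genes, against 7.99% and 10.7% of all genes. DESeq2 called 1 and 2, against 0.935% and 2.42%. The groups did not overlap in 5 and 8 of the 12, against 6.76% and 13.8%. Fap, 1 of the 12, passed the filter only through Ephb4 control bleomycin mice 1 and 4 (14.3 and 10.04 CPM). Its direction, and its place in these counts and medians, therefore carry no weight. The summed level of the list ranged from 6592 to 13965 CPM in Ephb4 control bleomycin mice, 49.8 to 7942 CPM in Ephb4 control PBS mice, 93.0 to 2337 CPM in Ephb4 CKO PBS mice and 82.4 to 2101 CPM in Ephb4 CKO bleomycin mice. A macrophage list of 15 genes was summed to 1364 to 21079 CPM in Ephb4 control bleomycin mice, 10069 to 44745 CPM in Ephb4 control PBS mice, 22501 to 40682 CPM in Ephb4 CKO PBS mice and 23488 to 42036 CPM in Ephb4 CKO bleomycin mice. All 15 were lower after bleomycin in Ephb4 control mice (median -1.04) and higher in Ephb4 CKO after bleomycin (median 1.32). At an unadjusted p under 0.05 in edgeR there were 1 and 4 of them, against 5.76% and 8.47% of all genes. DESeq2 called 1 and 1, where it called 68 and 145 of all 10481 genes in those directions. The groups did not overlap in 1 and 8 of the 15, against 924 and 2333 of 10481 genes in either direction. Macrophage marker RNA was thus present in every culture labelled as lung fibroblasts, and in bulk RNA fewer cells of a type and less RNA per cell cannot be told apart.

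A smooth muscle list of 5 genes summed to 2813 to 3977 CPM in Ephb4 control bleomycin mice and to 24.7 to 1867 CPM in Ephb4 CKO bleomycin mice. In the first comparison all 5 were higher, 4 of them at an unadjusted p under 0.05 in edgeR, against 7.99% of all genes. In the second all 5 were lower, 0 of them at that threshold, against 10.7%. The groups did not overlap in 5 and 4 of these genes, against 6.76% and 13.8% of all genes. The endothelial list (7 genes, medians of -0.12 and -1.09 in the first and second comparisons), the epithelial list (6 of 7 tested, -0.60 and 0.04), the neutrophil list (3 of 5 tested, -0.87 and 1.60) and the mesothelial list (1 of 4 tested, -1.28 and -0.40) had no gene at an unadjusted p under 0.05 in edgeR in either comparison. Of 5 lymphocyte genes, 0 were tested, and they summed to at most 27.3 CPM in any library. With the mean log2 CPM of the fibroblast genes as a covariate, the members' median was 0.51 for bleomycin in Ephb4 control mice, with 0 members at an unadjusted p under 0.05 in edgeR, against 3.52% of all genes higher. It was -0.62 for Ephb4 CKO after bleomycin, with P3h1 (-1.30) and P4hb (-0.80) still at an unadjusted p under 0.05, against 3.89% of all genes lower. With the macrophage mean instead, the medians were 0.95 and -1.09, and 3 members were higher and 3 lower at an unadjusted p under 0.05, against 3.84% and 2.05% of all genes. These fits cannot separate the share of a cell type from its RNA level per cell, since the fibroblast genes include Col1a1, Col1a2 and Col3a1. The part of the cultures' make-up in the differences was not tested.

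Across the 17 libraries, 9 of the 10 members rose with the fibroblast score, the mean log2 CPM of the 12 fibroblast genes tested. Serpinh1 had Pearson r = 0.95 and Spearman rho = 0.97 (permutation p = 1e-05 for each, the smallest that 100000 resamples give). Plod2 had r = 0.92, P4ha3 0.92, P4ha2 0.90 and P3h1 0.88, each with the same permutation p. The filter kept P4ha3 only through Ephb4 control bleomycin libraries, a group with high fibroblast scores (7.19 to 8.33). Its r and p over all libraries, and its place among the 9, are thus partly set by the filter and carry no weight. The same holds for its r with the macrophage score below. P4ha1 (r = 0.72), Crtap (0.64), P4hb (0.61) and Plod1 (0.60) had Benjamini-Hochberg adjusted permutation p-values of 0.00249, 0.0104, 0.0159 and 0.0181 over 20 relations, and Spearman rho of 0.74, 0.62, 0.54 and 0.56. Plod3 had r = -0.11 and rho = -0.15 (permutation p = 0.673 and 0.559). The permutations, here and for the macrophage score below, ignored the groups, so their p-values also reflect differences between groups. The fibroblast score includes the substrate chains Col1a1, Col1a2 and Col3a1.

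The relation was weaker in part when fewer libraries were used. Without the 2 libraries farthest from the median score, Ephb4 control bleomycin mice 1 and 2, r was 0.93 for Serpinh1, 0.48 for Crtap and 0.42 for P4hb. Over the 13 libraries outside the Ephb4 control bleomycin group, a subset chosen after seeing the data, r was 0.90 for Serpinh1, 0.86 for Plod2, 0.85 for P4ha3, 0.82 for P4ha2 and 0.74 for P3h1, but 0.33 for Crtap and 0.18 for P4hb, whose relation over all libraries rests in part on that group. Within the 8 mice whose animal numbers begin with 11 and the 9 whose numbers begin with 12, r was 0.98 and 0.93 for Serpinh1, 0.79 and 0.90 for P3h1, and 0.30 and 0.69 for P4hb. The macrophage score set Ephb4 control bleomycin mouse 1 apart from the rest, so it was read over the other 16 libraries. There Serpinh1 had r = -0.90, Plod2 -0.87, P4ha3 -0.81, P4ha2 -0.80 and P3h1 -0.74, with rho of -0.88, -0.87, -0.86, -0.77 and -0.69 and adjusted permutation p-values of at most 0.00244 for r, and r for Serpinh1 was -0.88 without the 2 libraries farthest from the median. Plod3 had r = 0.58 (adjusted permutation p = 0.0250; rho = 0.52, adjusted permutation p = 0.0552).

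**Figure D5:**
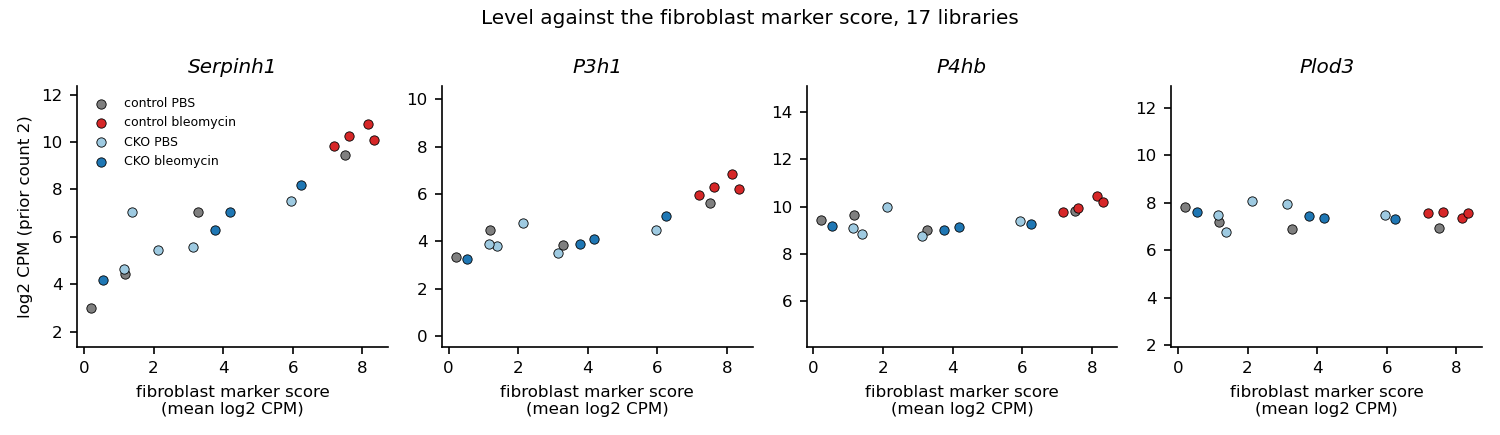
Level of Serpinh1, P3h1, P4hb and Plod3 (y axis, log2 CPM with a prior count of 2, equal spans) against the fibroblast marker score (x axis, mean log2 CPM of 12 genes) in 17 libraries coloured by group. Serpinh1 climbs along the whole axis (r = 0.95) and Plod3 stays level (r = -0.11).

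The animal number series is nearly the same split as bleomycin in Ephb4 control mice, since all 4 bleomycin mice and 1 of the 4 PBS mice have numbers that begin with 12. With the series as a covariate, the members' median was 1.04 for bleomycin in Ephb4 control mice and -1.74 for Ephb4 CKO after bleomycin, and 3 members were higher in the first and 8 lower in the second at an unadjusted p under 0.05 in edgeR, against 5.02% and 9.02% of all genes in that fit. Within the mice numbered from 12, P3h1 was at 14.5 CPM in the single Ephb4 control PBS mouse, 62.7 to 116 CPM in the 4 Ephb4 control bleomycin mice, and 17.1 and 33.9 CPM in the 2 Ephb4 CKO bleomycin mice.

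The genes whose pattern over the 17 libraries was most like that of each member, by Pearson r of log2 CPM over 10471 other genes tested, are given as a description. Serpinh1 was nearest to Sparc (r = 0.99), Fkbp10 (0.99) and Col1a1 (0.99), and P4ha3 was nearest to Col1a1 (0.97), Khdrbs3 (0.96) and Fkbp10 (0.96). Plod2 was nearest to Armcx1, Dbn1 and Pear1 (0.98 to 0.99), P4ha2 to Nfatc4, Fkbp7 and Plekhf1 (0.98 to 0.99), and P3h1 to Txndc5, 1810055G02Rik and Nxn (0.97 to 0.98). P4hb was nearest to Pofut2 (0.95), Crtap to Itga5 (0.95), P4ha1 to Zeb1 (0.90), Plod3 to Pam16 (0.90) and Plod1 to Kif21b (0.88). Between members, r was highest for Plod2 with Serpinh1 and P4ha3 with Serpinh1 (both 0.96) and P4ha2 with Plod2 (0.95), 0.74 for the partners P3h1 and Crtap, and between -0.27 and 0.45 for Plod3 with the others. All of these points share libraries, depth and culture make-up.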

How the data were processed

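Total RNA-Seq counts of 17 libraries were used, grouped from the sample labels; all 17 columns matched a labelled mouse and 0 columns were left without a sample. The deposited values are whole-number counts per gene, not normalized. To make them, the authors trimmed adapters with Cutadapt (1.18 in the submitters' processing notes; the paper names another version), aligned reads to GRCm38 with HISAT2 2.1.0 in strand-specific mode, and ran StringTie, whose script turns transcript coverage into counts, so a count depends on how coverage was divided between overlapping transcripts. The authors tested with DESeq2 and a batch term; the batch of each library is not given in the sources used here, so no batch term was fitted.

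From the counts, CPM was computed with TMM library sizes, and genes above 10 CPM (before TMM scaling) in at least 2 libraries were tested over all 17 libraries with 1 mean per group by edgeR's quasi-likelihood test (edgeR 4.0.16, R 4.3.3), with Benjamini-Hochberg adjustment over 10481 genes at 0.05. Standard errors were derived from fold changes and F statistics. The biological coefficient of variation was 0.556. DESeq2 1.42.0 and limma voom (limma 3.58.1) were alternatives. Log2 CPM used a prior count of 2. Levels per kilobase used the union of exons in GENCODE M21 (GRCm38); of 55421 identifiers 55240 matched it. Promoter windows are from RefSeq (GRCm38.p6). Ratios were compared by exact permutation tests and correlations by 100000 permutations (numpy 2.4.6).

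Named genes are the 10 members, the target, the substrate, partner and comparison lists, and the 3 genes most like each member; members, lists and comparisons were chosen with earlier results of these data known, and the marker lists come from general knowledge. The scripts were tested on simulated data. Alternatives were 3 normalizations, 2 filters, only the compared groups, sex, number series, the 2 sorted runs of columns or a marker score as a covariate, transcript instead of exon-union length, the 3 libraries with discordant sex genes left out, and each mouse left out. P-values treat mice as replicates.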

Additional observations from a re-analysis of the deposited data

Results flagged for a closer look

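In 3 of 56 groups of values, 1 mouse lay far from the rest of its group, judged by the gap to its nearest neighbour over the group's whole range; chance gives such a gap in about 1 in 20 groups. P4ha2 was at 132 CPM in Ephb4 control PBS mouse 3 and at 1.67 to 21.4 CPM in the other 3 mice of its group. P4ha3 was at 6.30 CPM in the same mouse and at 0 to 0.975 CPM in the others. That mouse also had the highest fibroblast score of its group, 7.50 against 0.22 to 3.27. Plod3 was at 164 CPM in Ephb4 control bleomycin mouse 1 and at 189 to 193 CPM in the other 3 mice.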

How the results depend on the processing

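In the comparisons of bleomycin with PBS in Ephb4 control mice and of Ephb4 CKO with control after bleomycin, every member kept its direction under every alternative except Plod1 (-0.061 in the first with the fibroblast score as a covariate), P4ha3 (0.17 in the second with that score) and Plod3 (0.12 in the second with upper quartile normalization and 0.022 without the libraries with discordant sex genes); the cause was not tested. DESeq2 called more: 166 genes and 1 member in the first, 399 genes and 3 members in the second, 1 gene after PBS and 1 gene in Ephb4 CKO mice. With the column runs as a covariate it called 231 genes and 1 member, 387 genes and 2 members (P4hb and P3h1, without Serpinh1), 1 gene in Ephb4 CKO mice and 1 gene in the interaction. The fibroblast score as a covariate moved the members' median to 0.51 and -0.62. In fits without 1 mouse edgeR called 0 to 2 genes in the first comparison. P4ha3 fell below the filter, and was not tested, without Ephb4 control bleomycin mouse 1 or 2 and without the libraries with discordant sex genes.

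For Ephb4 CKO versus control after PBS, limma voom turned P4ha1 (-0.0038), P4ha3 (1.65), Plod1 (-0.032) and Serpinh1 (0.062); the fibroblast score turned P4ha2 (0.37), P4ha3 (1.45), Plod2 (0.33) and Serpinh1 (0.49); and the macrophage score turned P4ha2 (0.29), P4ha3 (1.24), Plod1 (-0.033), Plod2 (0.24) and Serpinh1 (0.42). For bleomycin in Ephb4 CKO mice, voom turned P4ha2 (0.10), the number series P3h1 (-0.00952), the fibroblast score P4ha3 (-0.60), P3h1 (-0.30), Plod2 (-1.17) and Serpinh1 (-0.66), the macrophage score P3h1 (-0.065), and leaving out the libraries with discordant sex genes P3h1 (-0.57), Plod2 (-1.58) and Serpinh1 (-0.84).

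With each mouse left out, the difference after PBS ranged from -0.17 to 0.50 for P4ha1, -0.036 to 0.47 for Crtap, -0.12 to 0.21 for Plod1, -1.31 to 0.91 for P4ha2, -1.49 to 1.44 for P4ha3, -0.65 to 0.23 for P3h1, -2.06 to 0.34 for Plod2 and -1.81 to 0.70 for Serpinh1. The difference in Ephb4 CKO mice ranged from -0.54 to 0.26 for P4ha2, -0.25 to 0.11 for P4hb, -0.23 to 0.14 for Crtap, -0.38 to 0.30 for P3h1, -0.21 to 0.078 for Plod1, -0.81 to 1.14 for Plod2 and -0.16 to 1.07 for Serpinh1. Among the ratios, the P4ha1 share after PBS ranged from -1.29 to 4.71 percentage points, the log2 P4ha to P4hb ratio after PBS from -0.0071 to 0.49, and, in Ephb4 CKO mice, the log2 P3h1 to Crtap ratio from -0.24 to 0.26, the P4ha1 share from -3.27 to 0.67 and the Plod2 share from -2.03 to 5.92. Outside the Ephb4 control bleomycin group, r with the macrophage score was 0.034 for P4ha1 and 0.13 for Crtap.

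Among genes at an unadjusted p under 0.05, upper quartile normalization moved the share that was higher from 58.1% to 25.5% (bleomycin in Ephb4 control mice), 44.2% to 72.6% (Ephb4 CKO after bleomycin), 67.7% to 83.0% (after PBS), 32.7% to 22.6% (Ephb4 CKO mice) and 42.2% to 74.6% (interaction, whose median over all genes moved to 0.13). RLE gave 79.0% after PBS; library sizes without the abundant noncoding genes gave 55.1% (Ephb4 CKO after bleomycin), 75.8% (after PBS) and 52.4% (interaction). No paired analysis was possible because replicate numbers follow the order of the series and pair no mice. Precision differed between the members: in the first comparison the standard error of the log2 fold change ran from 0.26 for Plod3 to 1.45 for P4ha3, with at least 66540022 counts in every library.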
